A study of Mus musculus with 9 samples.

Results

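Expression of 10 Notch pathway genes was followed in sorted mouse keratinocytes and sorted regulatory T cells (Tregs). They were the receptors Notch1, Notch2, Notch3 and Notch4, the ligands Jag1, Jag2 and Dll1, the glycosyltransferase gene Lfng, and the target genes Hes1 and Hey1. They were chosen by symbol, and all 10 were found among the 36442 genes of the epidermal table and the 24016 gene symbols of the Treg table. RNA was sequenced from 9 libraries. Keratinocytes of adult skin epidermis came from WT animals (2 libraries) and from the Mi2 group (2 libraries). Tregs of skin-draining lymph nodes came from controls (Ctl, 2 libraries), from Mi2 animals as TSLPR WT Tregs (2 libraries) and from Mi2 animals as TSLPR-negative Tregs (1 library). In the deposited column names the Mi2 libraries are marked KO, the Ctl Treg libraries are marked WT, and the Treg libraries are named skin Tregs. The column of the TSLPR-negative library is named TMDKO and was matched to that sample by elimination. The labels do not state strain, age or sex, the alleles or Cre driver behind the Mi2 and TSLPR-negative states, or whether 2 libraries of a group are 2 mice. The p-values therefore measure only the spread between these libraries, which may be technical.

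Notch is a receptor that sits on one cell and is activated by a ligand on a neighbour. Ligand binding lets an ADAM protease and then gamma-secretase cut the receptor, and the freed intracellular domain joins the DNA-binding protein RBPJ and Mastermind coactivators to switch on targets such as the Hes and Hey repressor genes. Fringe enzymes, of which Lfng is one, add sugars to the receptor and shift its response between Delta and Jagged ligands. In epidermis the pathway is known for its part in keratinocyte differentiation, and in T cells for lineage choice and helper cell function.

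RBPJ recognises the core motif TGGGAA. It was sought, on both strands, in the 250 bases before the transcription start in RefSeq promoters of build GRCm38.p6, which held 9 sequences for 8 of the 10 genes (Hes1 and Hey1 had no entry). The motif was found in the promoter of Lfng, and in 21.6% of all 32851 mouse promoters of the same length. Both promoters below are given because Lfng and Jag1 were called in opposite directions in Mi2 epidermis. The Jag1 window does not hold these letters, and neither do those of the other genes with a sequence, called or not. A link between the motif and the direction of a change was not tested. Capitals mark TGGGAA, or its reverse complement TTCCCA, which lie 108 to 103 and 135 to 130 bases before the Lfng start. The Lfng window is chr5:140607091-140607340 on the plus strand, and that of Jag1 is chr2:137116521-137116770 on the minus strand.
Lfng: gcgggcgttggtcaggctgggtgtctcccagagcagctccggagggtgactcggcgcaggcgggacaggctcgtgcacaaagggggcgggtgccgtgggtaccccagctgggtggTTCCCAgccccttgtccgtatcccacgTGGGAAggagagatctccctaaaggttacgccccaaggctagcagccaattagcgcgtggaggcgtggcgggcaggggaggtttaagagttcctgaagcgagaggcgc
Jag1: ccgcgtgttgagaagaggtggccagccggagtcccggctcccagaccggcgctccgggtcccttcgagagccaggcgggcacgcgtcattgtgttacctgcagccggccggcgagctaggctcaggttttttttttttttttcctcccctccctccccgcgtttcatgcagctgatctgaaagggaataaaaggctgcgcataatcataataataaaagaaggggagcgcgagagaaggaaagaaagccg
The longer form GTGGGAA was present in 5.42% of all promoters and in 1 of the 9 sequences of these genes. A match describes letters in a window and does not show that RBPJ binds there.

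On mm9, the build of the Treg table, the transcripts counted were as follows. Notch1 lies at chr2:26313422-26359342, Notch2 at chr3:97817461-97954290, Notch3 at chr17:32257838-32303797 and Notch4 at chr17:34701240-34725488. The ligand genes lie at chr2:136907187-136942256 (Jag1), chr12:114146801-114167706 (Jag2) and chr17:15504318-15512787 (Dll1). Lfng lies at chr5:141083295-141091499, Hes1 at chr16:30065443-30067882 and Hey1 at chr3:8663359-8667038. Each is a whole transcript, and reads over its exons were counted. In the GENCODE annotation an opposite-strand gene, A930024N18Rik, covers 20.6% of the exon bases of Dll1. No strand setting is stated for the counting, so reads of such partners cannot be told apart. Opposite-strand genes also cover 7.50% of Notch1 exon bases (0610009E02Rik) and 6.03% of Notch3 exon bases (Gm17276), and Gm42820, on the same strand, covers 5.02% of those of Notch2.

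Depth was between 5682391 and 8913804 reads per library in epidermis and between 21849381 and 32238992 in Tregs. Chd4, which encodes Mi-2β, was at 1607 and 1942 normalized reads in the WT libraries and at 734 and 1207 in those of Mi2. Tregs showed no such drop. Their Chd4 mean was 13443 for Ctl and 13017 for TSLPR WT Mi2 (log2 change -0.037, limma adjusted p = 0.919). The TSLPR-negative library was at 15392. Crlf2, which encodes TSLPR, was at 395 and 742 in the Ctl libraries, at 816 and 715 in those of TSLPR WT Mi2 and at 51.5 in the TSLPR-negative one. The keratinocyte genes Krt5, Krt14, Krt15 and Trp63 were listed at 0 in all 5 Treg libraries, and the Treg gene Foxp3 was between 11159 and 15371 there. The other keratinocyte markers were not at 0. Their means over the Treg libraries were 0.596 for Krt1, 7.62 for Itgb4, 35.5 for Krt10 and 6751 for Itga6. The share of mitochondrially encoded genes in the epidermal reads was 13.8% and 12.9% for WT against 29.7% (replicate 1) and 15.5% (replicate 2) for Mi2. The epidermal and Treg tables were scaled separately, so levels are not compared between them.

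In Mi2 epidermis, Jag1 and Notch3 rose and Lfng fell. Notch1 and Notch2 were higher in both Mi2 libraries than in both WT libraries by about the same fitted change as Notch3, but missed the threshold. Jag2, the ligand with the most reads per kb, differed little, and Hes1 differed more between the Mi2 libraries than between the groups. Of the 10 genes, 8 had a mean of at least 10 normalized reads and were tested, and Notch4 and Hey1 were not. With limma and Benjamini-Hochberg adjustment over 14461 genes, 2 were called higher and 1 lower at an adjusted p under 0.05. Among all genes tested, 28.2% were called, 15.1% higher and 13.1% lower, so 3 of 8 is not far from the background. The groups did not overlap for 7 of the 8, nor for 70.7% of all genes tested. The median log2 change was 0.26 over these 8 genes and -0.029 over all genes tested. With WT replicate 1 or WT replicate 2 dropped, that group held 1 library, and calls fell over all genes as well as among these 8. limma without an intensity trend called 0 of the 8, and over all genes it called 2918 in place of 4085. With the trend, 6 of the 8 were at an unadjusted p under 0.05, as were 42.5% of all genes.

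**Figure D1:**
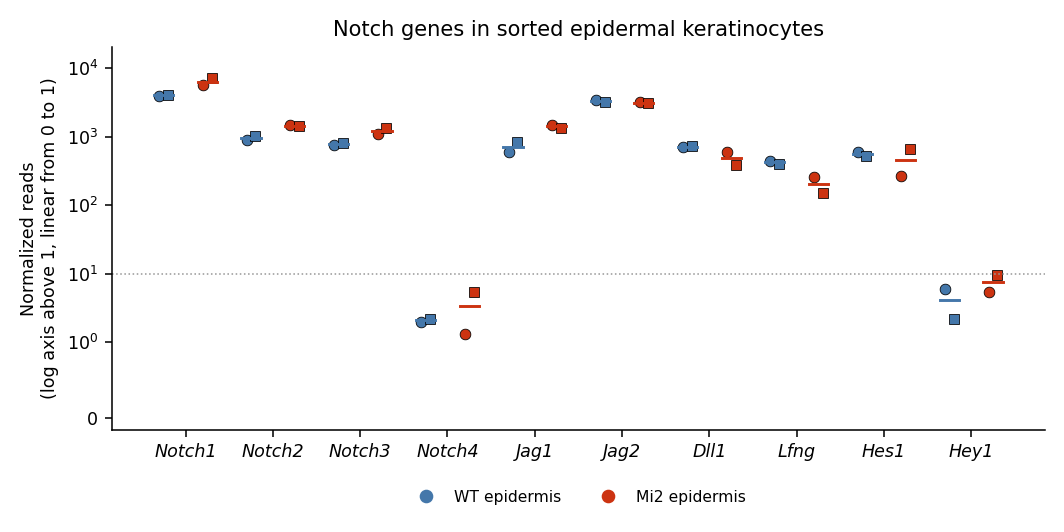
Normalized reads of the 10 Notch genes in each epidermal library (log axis above 1). Circles are replicate 1, squares replicate 2, bars group means, and the dotted line is the mean of 10 below which a gene was not tested. Jag1 is at 590 and 822 in WT and at 1495 and 1325 in Mi2, while Lfng goes from 445 and 399 to 255 and 150.

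Among receptors, Notch1, the main Notch receptor of the epidermis, was at 3950 and 4017 normalized reads in the WT libraries and at 5558 and 7059 in those of Mi2. Both Mi2 libraries were above both WT libraries, and the log2 change was 0.65 (SE 0.231, limma adjusted p = 0.0726). DESeq2 on the recovered reads called Notch1 (adjusted p = 0.0253), but edgeR did not (0.0780). The change of Notch1 was 0.42 (adjusted p = 0.222) with mitochondrial genes left out of the totals, and its adjusted p reached 0.265 without WT replicate 1. Notch2, a second receptor, was at 893 and 1021 in the WT libraries and at 1486 and 1410 in those of Mi2. The groups did not overlap, and the log2 change of Notch2 was 0.60 (SE 0.188, limma adjusted p = 0.0519).

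Notch3, a receptor best known from vascular smooth muscle, rose from 749 and 792 normalized reads in the WT libraries to 1096 and 1316 in those of Mi2. The log2 change of Notch3 was 0.64 (SE 0.193, limma adjusted p = 0.0466), close to the threshold. Notch3 lost its call when the totals left out mitochondrial genes (log2 change 0.41, adjusted p = 0.188) or the 50 most abundant genes (0.51, adjusted p = 0.101). It also lost it when WT replicate 1, WT replicate 2 or Mi2 replicate 2 was dropped (log2 changes 0.60, 0.68 and 0.51), without the trend and without the filter. Notch2, in contrast, was called higher with a pseudocount of 5, and its log2 change was 0.64 without Mi2 replicate 2. Over the 12 alternatives the change of Notch2 ran from 0.37 to 0.70, and 9 of the 12 left it uncalled. Notch4, a receptor known from endothelium, was at 1.98 and 2.18 in the WT libraries and at 1.33 and 5.45 in those of Mi2, which is 2, 3, 1 and 4 reads, so no difference was detectable at this depth.

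Markers of vessel cells also moved in Mi2 epidermis. The 6 pericyte and smooth muscle markers summed to 452 and 619 normalized reads in the WT libraries and to 1215 and 1063 in those of Mi2. Of the 5 tested, 2 were called higher and 1 lower, against 15.1% and 13.1% of all genes. Pdgfrb was at 0 in WT replicate 2 and Mi2 replicate 2. In that list Acta2 went from 36.7 and 29.0 to 862 and 466, and Rgs5 from 3.97 and 2.18 to 65.0 and 372. Cspg4, the marker called lower, went from a WT mean of 464 to a Mi2 mean of 186 (log2 change -1.29, limma adjusted p = 0.0113). Rgs5 passed the filter only through the Mi2 libraries. The 9 endothelial markers summed to 1.98 and 3.63 in the WT libraries and to 70.3 and 24.5 in those of Mi2. Egfl7, at 0.992 and 2.18 in the WT libraries, passed the filter only through those of Mi2, while Cdh5, Kdr, Emcn and Robo4 were at 0 in all 4 libraries. Their part in the changes of the Notch genes was not tested. In such bulk samples, fewer cells of a type and less RNA per cell cannot be told apart.

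The ligand Jag1 rose from 590 and 822 normalized reads in the WT libraries to 1495 and 1325 in those of Mi2. Both Mi2 libraries stood well above both WT libraries, with a log2 change of 1.01 (SE 0.224, limma adjusted p = 0.0177). Jag1 kept its call with mitochondrial genes left out (0.78, adjusted p = 0.0455) and lost it without WT replicate 1 (adjusted p = 0.170), Mi2 replicate 1 (0.0811) or the intensity trend (0.0577). Jag2, the second Jagged ligand, was at 3357 and 3241 in the WT libraries and at 3183 and 3047 in those of Mi2. Its log2 change was -0.083 with a 95% interval of -0.55 to 0.38 (limma adjusted p = 0.777). The Delta ligand Dll1 was at 700 and 728 in the WT libraries and at 592 and 386 in those of Mi2. Both Mi2 libraries were below both WT libraries, at a log2 change of -0.58 (SE 0.244, limma adjusted p = 0.116). Without mitochondrial genes in the totals, Dll1 was called lower (-0.81, adjusted p = 0.0373).

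Lfng, the Fringe enzyme, fell from 445 and 399 normalized reads in the WT libraries to 255 and 150 in those of Mi2. The groups did not overlap, and the log2 change of Lfng was -1.10 (SE 0.283, limma adjusted p = 0.0282). This call was lost without WT replicate 1 (adjusted p = 0.195), WT replicate 2 (0.130), the trend (0.0735) or the filter (0.0509). It was kept with mitochondrial genes left out, at -1.34. Of the 8 keratinocyte markers, 2 were called lower in Mi2 and 0 higher, against 13.1% and 15.1% of all genes. The 2 were Krt15, a basal keratin, at 49093 and 40508 against 4202 and 8781, and Krt1, a keratin of differentiating cells, at 21522 and 18749 against 4503 and 8896. Krt10 missed the threshold (log2 change -1.60, limma adjusted p = 0.0717). The other 5 (Krt5, Krt14, Itgb4, Itga6 and Trp63) had log2 changes from 0.30 to 0.92, none of them called. None of the 8 was at 0, and they summed to 277683 and 256560 in the WT libraries and to 297362 and 244238 in those of Mi2. Their part in the result for Lfng was not tested.

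Hes1, a repressor gene switched on by Notch, was at 593 and 515 normalized reads in the WT libraries and at 268 and 648 in those of Mi2. The 2 Mi2 libraries lay on either side of the WT libraries (log2 change -0.41, SE 0.388, limma adjusted p = 0.456). Mi2 replicate 1 decided its direction, since without it Hes1 was higher in Mi2 by 0.23, and without Mi2 replicate 2 it was called lower by -1.04 (adjusted p = 0.0199). Hey1, the second target, was at 5.95 and 2.18 in the WT libraries and at 5.31 and 9.54 in those of Mi2, under the level tested.

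In Tregs of Mi2 animals that carried TSLPR, Notch2 fell and Jag1 rose, while Notch1 was nearly level. Lfng and Jag2 were lower in both TSLPR WT Mi2 libraries than in both Ctl libraries but missed the threshold. Of the 10 genes, 7 were tested, and Notch3, Dll1 and Hes1 were too low. Among these 7, 1 was called higher and 1 lower with limma and Benjamini-Hochberg adjustment over 12206 genes, against 27.7% of all genes called (14.7% higher, 13.0% lower). The share among the Notch genes is thus near the background. The groups did not overlap for 6 of the 7, nor for 65.6% of all genes. The median log2 change was -0.55 over the 7 and -0.0083 over all genes. With either TSLPR WT Mi2 library dropped, that group held 1 library, and calls over all genes fell. Among the 7, fewer were called without replicate 1 and more without replicate 2. Over the 13 alternatives the log2 change ran from -1.16 to -0.55 for Notch2 and from 1.49 to 1.90 for Jag1. The Treg fit used all 5 libraries and assumed that the lone TSLPR-negative library varies like the other groups.

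**Figure D2:**
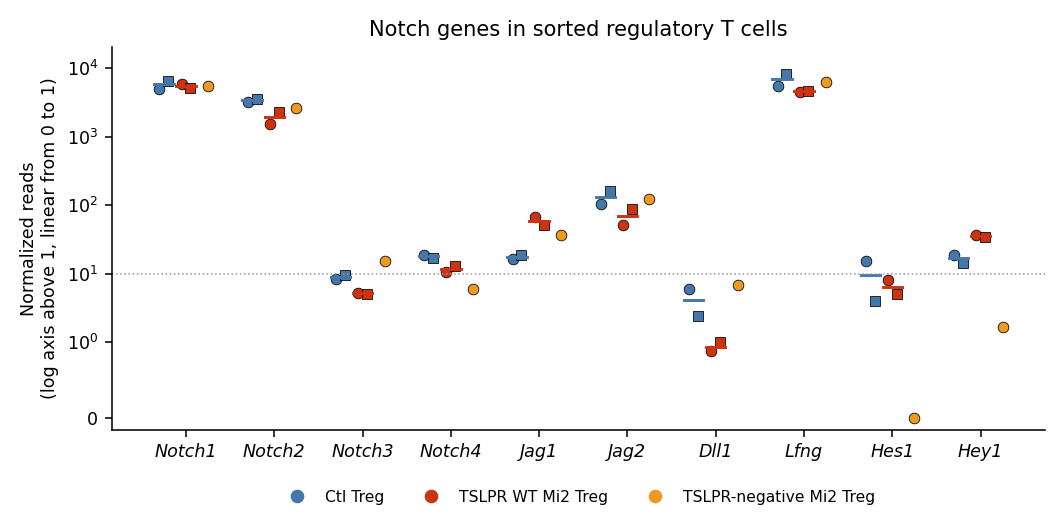
Normalized reads of the 10 Notch genes in each Treg library (log axis above 1, linear from 0 to 1). Circles are replicate 1, squares replicate 2, bars means of 2 libraries, and the dotted line is the mean of 10 below which a gene was not tested. Hey1 is at 36.2 and 33.9 in the TSLPR WT Mi2 libraries and at 1.69 in the TSLPR-negative one, and Hes1 is at 0 in the latter.

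Notch1 was at 5004 and 6532 normalized reads in the Ctl libraries, at 5910 and 5135 in those of TSLPR WT Mi2 and at 5454 in the TSLPR-negative one. The groups overlapped, and the log2 change of TSLPR WT Mi2 against Ctl was -0.054 with a 95% interval of -0.51 to 0.40 (limma adjusted p = 0.880). Notch2 fell from 3209 and 3555 in the Ctl libraries to 1507 and 2306 in those of TSLPR WT Mi2, and was at 2567 in the TSLPR-negative one. Against Ctl its log2 change in TSLPR WT Mi2 Tregs was -0.86 (SE 0.229, limma adjusted p = 0.0121). The call was lost without TSLPR WT Mi2 replicate 1 (adjusted p = 0.196), without the trend (0.0786) and without the filter (0.131). In the TSLPR-negative library Notch2 stood between the groups, 0.46 above TSLPR WT Mi2 on the log2 scale (95% interval -0.14 to 1.06, limma adjusted p = 0.571).

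B cells, which use NOTCH2 in the marginal zone lineage, were a further cell type whose markers moved. The 6 B cell markers summed to 4699 and 2168 normalized reads in the Ctl libraries, to 811 and 1028 in those of TSLPR WT Mi2 and to 936 in the TSLPR-negative one. All 6 of 6 were called lower in TSLPR WT Mi2 than in Ctl, against 13.0% of all genes. None of the 6 was at 0 in any library, and Cd79b and Ms4a1 had the highest means. Their part in the result for Notch2 was not tested.

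Of the other receptors, Notch3 was at 8.28 and 9.62 normalized reads in the Ctl libraries, at 5.29 and 4.98 in those of TSLPR WT Mi2 and at 15.2 in the TSLPR-negative one. Notch4 was at 18.9 and 16.8 in the Ctl libraries, at 10.6 and 12.9 in those of TSLPR WT Mi2 and at 5.91 in the TSLPR-negative one. For Notch4 the log2 change of TSLPR WT Mi2 against Ctl was -0.57 with a 95% interval of -1.82 to 0.69 (limma adjusted p = 0.508). Both are minor receptors in these cells, as their shares per kb show further on.

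Jag1 rose from 16.6 and 18.5 normalized reads in Ctl to 67.9 and 50.8 in TSLPR WT Mi2 Tregs, and was at 36.3 in the TSLPR-negative library. Its log2 change of TSLPR WT Mi2 against Ctl was 1.69 (SE 0.454, limma adjusted p = 0.0123), and the groups were far from overlapping. The call for Jag1 was lost without Ctl replicate 1 (adjusted p = 0.0554), TSLPR WT Mi2 replicate 1 (0.0747) or the filter (0.0814). Jag2 was at 104 and 161 in the Ctl libraries, at 52.0 and 87.6 in those of TSLPR WT Mi2 and at 122 in the TSLPR-negative one. Both TSLPR WT Mi2 libraries were below both Ctl libraries (log2 change of Jag2 -0.93, SE 0.381, limma adjusted p = 0.0834). Jag2 was called without TSLPR WT Mi2 replicate 2 (-1.30, adjusted p = 0.0236), and its change was -0.56 without TSLPR WT Mi2 replicate 1 and -0.62 without Ctl replicate 2. Dll1 was at 5.92 and 2.41 in the Ctl libraries, at 0.88 and 1.0 in those of TSLPR WT Mi2 and at 6.75 in the TSLPR-negative one. With 2 reads in the TSLPR WT Mi2 libraries and 8 in the Ctl libraries, the Dll1 ratio was 0.245 with a 95% counting interval of 0.0253 to 1.23. The 8 reads of the TSLPR-negative library gave a ratio of 7.22 to TSLPR WT Mi2 (interval 1.44 to 69.8), which covers counting error alone.

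Lfng was at 5423 and 8255 normalized reads in the Ctl libraries, at 4515 and 4643 in those of TSLPR WT Mi2 and at 6194 in the TSLPR-negative one. Its log2 change of TSLPR WT Mi2 against Ctl was -0.55 (SE 0.227, limma adjusted p = 0.0874), so the lower level missed the threshold. Without Ctl replicate 1 Lfng was called (-0.85, adjusted p = 0.0147), and without Ctl replicate 2 its change was -0.24. Whether these changes differ between tissues was not tested.

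Among the targets, Hey1, a repressor gene related to Hes1, was at 18.9 and 14.4 normalized reads in the Ctl libraries, at 36.2 and 33.9 in those of TSLPR WT Mi2 and at 1.69 in the TSLPR-negative one. It was highest in both TSLPR WT Mi2 libraries and lowest in the TSLPR-negative one. Against TSLPR WT Mi2, Hey1 was the 1 gene of 7 called, lower by a log2 change of -3.74 (SE 0.681, limma adjusted p = 0.0207), where 0.942% of all genes were called, 0.737% higher and 0.205% lower. For 6 of the 7 the TSLPR-negative value lay outside the TSLPR WT Mi2 pair, as it did for 73.2% of all genes. The difference in Hey1 rests on 2 reads against 75, a ratio of 0.0481 with a 95% counting interval of 0.00572 to 0.180. DESeq2 did not call it (adjusted p = 0.0674), nor did limma without the filter (0.452).

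Against Ctl, Hey1 in the TSLPR-negative library was likewise the 1 gene called, at a log2 change of -2.71 (SE 0.681, limma adjusted p = 0.0447). Of all genes 3.15% were called in that comparison, 2.63% higher and 0.516% lower. The TSLPR-negative value lay outside the Ctl pair for 4 of the 7 and for 72.2% of all genes. The difference in Hey1 rests on 2 reads against 34 (ratio 0.104, 95% counting interval 0.0121 to 0.405). The call was lost with edgeR (adjusted p = 0.0814), DESeq2 (0.224), a pseudocount of 5 (0.105), no trend (0.0573) and no filter (0.351), and without Ctl replicate 1 (0.158) or Ctl replicate 2 (0.0807). Between TSLPR WT Mi2 and Ctl, the log2 change of Hey1 was 1.04 with a 95% interval of -0.15 to 2.23 (limma adjusted p = 0.183, or 0.0301 without the trend). These Treg comparisons share libraries, so their changes are not independent.

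Hes1 was at 15.4 and 4.01 normalized reads in the Ctl libraries, at 7.94 and 4.98 in those of TSLPR WT Mi2 and at 0 in the TSLPR-negative one. With 0 reads there against 14 in the TSLPR WT Mi2 pair and 18 in the Ctl pair, the 95% counting interval of the Hes1 ratio reached up to 0.544 of TSLPR WT Mi2 and 0.402 of Ctl. With 1 TSLPR-negative library, neither target has a replicate there. Hey1 and Notch4 are also endothelial genes, and the endothelial marker Egfl7 was at 1.18 and 11.2 normalized reads in the Ctl libraries, 46.8 and 81.6 in those of TSLPR WT Mi2 and 27.9 in the TSLPR-negative one. The 9 endothelial markers summed to 4433 and 4189, 2198 and 2985, and 4228 in these groups, and 3 were tested. Of these, Pecam1, which T cells also express and which made up most of the sum, was called lower in TSLPR WT Mi2 than in Ctl. Egfl7 was called higher, and its Ctl mean was below the filter. Cdh5, at 8.28 and 4.81 in the Ctl libraries, 17.6 and 20.9 in those of TSLPR WT Mi2 and 8.44 in the TSLPR-negative one, was not called (log2 change 1.46 against Ctl, limma adjusted p = 0.0953). Cdh5 passed the filter only through the TSLPR WT Mi2 libraries. In the TSLPR-negative library Cdh5 had 10 reads, against 13 in the Ctl pair (log2 change 0.36, 95% interval -1.26 to 1.99). The log2 change of Egfl7 against Ctl there was 2.48 (95% interval 0.62 to 4.34), on 33 reads against 15. Emcn and Tie1 were at 0 in all 5 libraries, and Tek, Kdr and Robo4 did not exceed 1.18. The part of endothelial cells in the results for the targets was not tested.

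For the other genes, the TSLPR-negative library did not pass the threshold against either group, with log2 changes against TSLPR WT Mi2 of -0.014 for Notch1, -0.88 for Notch4, -0.68 for Jag1, 0.85 for Jag2 and 0.44 for Lfng. The 95% intervals were wide, from -1.87 to 0.51 for Jag1 and -0.15 to 1.84 for Jag2. Against Ctl the log2 changes were -0.068 for Notch1, -0.40 for Notch2, -1.45 for Notch4, 1.01 for Jag1, -0.082 for Jag2 and -0.11 for Lfng.

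**Figure D3:**
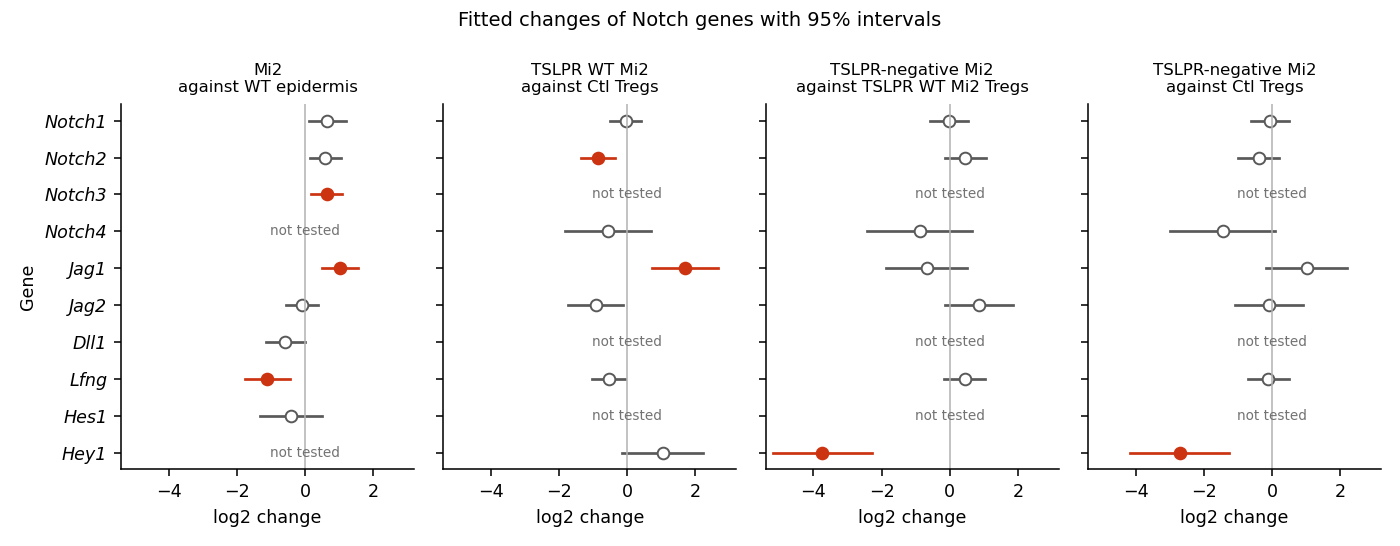
Fitted log2 change of each Notch gene in the 4 comparisons, with 95% intervals from limma. Filled red points were called at an adjusted p under 0.05, and genes below the filter are marked as not tested. In epidermis Jag1 and Notch3 lie to the right and Lfng to the left, in TSLPR WT Mi2 Tregs Jag1 lies to the right and Notch2 to the left, and Hey1 is the gene called in both comparisons of the TSLPR-negative library.

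Levels between genes were compared as normalized reads per kb of transcript. The mm9 transcript lengths of the Treg table were used for the epidermal table too. For Notch1 that length was 9453 bases, against 14232 exon bases in the GENCODE annotation, so its epidermal shares depend on the length used. Notch1 made up most of the receptor reads per kb in every library. Its share of the summed level of the 4 receptors was 69.9% and 68.2% for the WT libraries and 67.7% and 71.2% for those of Mi2. Notch2 and Notch3 divided nearly all of the rest there, with Notch3 between 15.8% and 16.1%. In Tregs the second receptor was Notch2, with Notch3 at no more than 0.233% and Notch4 at no more than 0.343%. The Notch2 share was 36.5% and 32.8% for Ctl, 18.7% and 28.8% for TSLPR WT Mi2 and 29.7% for TSLPR-negative Tregs. The summed receptor level was 598 and 623 per kb for WT and 869 and 1049 per kb for Mi2 epidermis. In the Treg table it was 840 and 1034 per kb for Ctl, 771 and 766 for TSLPR WT Mi2 and 825 for the TSLPR-negative library. It was above WT in both Mi2 epidermal libraries and below Ctl in all 3 Mi2 Treg libraries.

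Of the 3 ligands Jag1, Jag2 and Dll1, Jag2 was the largest per kb in every library. The lead was narrow in TSLPR WT Mi2 replicate 1, at 50.5% against 48.5% for Jag1. The non-canonical ligand gene Dlk1, not among the 3, was at 34.2 and 35.8 per kb in the TSLPR WT Mi2 libraries. Jag2 was at 12.9 and 21.8 per kb there. The Jag1 share of the summed level of the 3 ligands per kb was 9.42% and 12.9% for WT and 22.1% and 21.8% for Mi2 epidermis. In Tregs it was 9.90% and 7.65% for Ctl, 48.5% and 29.6% for TSLPR WT Mi2 and 17.0% for the TSLPR-negative library. Jag1 thus took a larger part of the reads of the 3 ligands in each Mi2 group. Their summed level stayed within 1112 to 1238 per kb in epidermis and 25.6 to 44.1 per kb in Tregs. These shares were not tested.

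**Figure D4:**
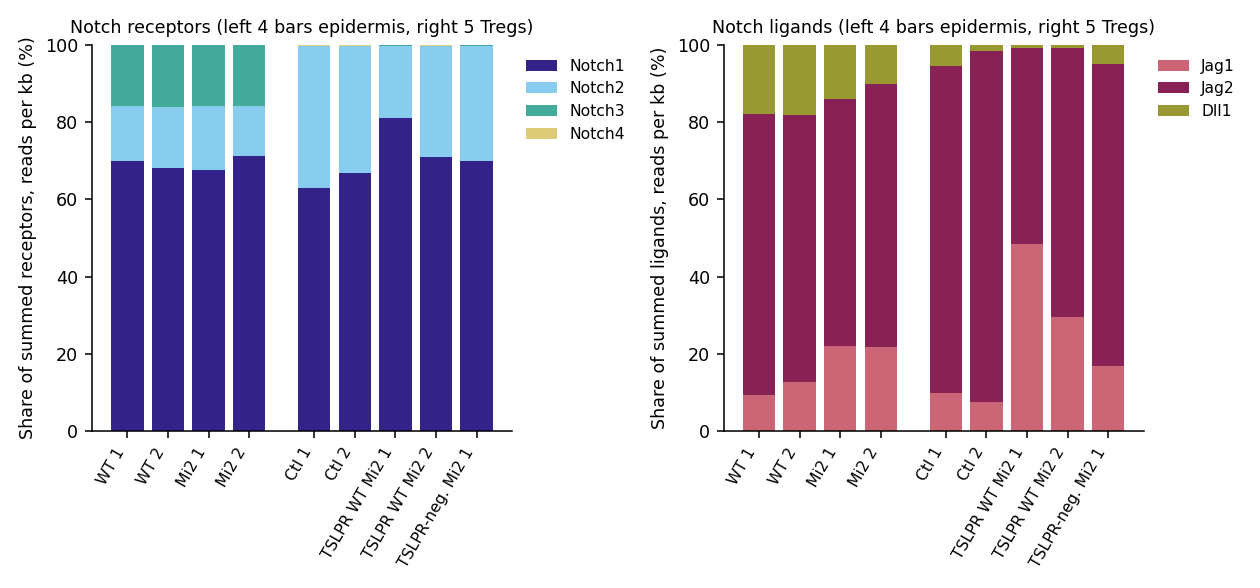
Share of each gene in the summed normalized reads per kb of the 4 receptors (left) and the 3 ligands (right), 1 bar per library. Notch3 is visible in the epidermal bars alone, the Notch2 share is smallest among Tregs in TSLPR WT Mi2 replicate 1 (18.7%), and the Jag1 share is largest in that library (48.5%).

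Beyond these 10 genes, 49 further genes of the pathway were listed. In epidermis 38 of them were tested and 4 were called higher and 3 lower, with a median log2 change of 0.028. These 7 of 38 are a smaller share than the 28.2% called among all genes. Heyl, Neurl1a and Aph1c passed the filter only through the group in which they were high, so their calls lend the count no support. Heyl, a repressor gene of the Hey family, rose from 0 reads in both WT libraries to 34.5 and 20.4 normalized reads in Mi2 epidermis. Against a floor of 3 reads in each WT library, Heyl was at least 10.9-fold higher. Neurl1a, a neuralized ubiquitin ligase, rose from 0 and 1.45 to 115 and 132, on 184 reads against 2 (ratio 147, 95% counting interval 40.3 to 1227). The ligase gene Dtx4 rose by a log2 change of 1.26 and Furin, whose protease cuts the receptor precursor, by 1.11 (limma adjusted p = 0.0176 and 0.0180). Both of these calls were lost without WT replicate 1 and without WT replicate 2, that of Dtx4 also without Mi2 replicate 1 and that of Furin without the trend.

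On the lower side, 2 subunits of gamma-secretase fell in Mi2 epidermis. Aph1b fell from 159 and 199 normalized reads in the WT libraries to 19.9 and 34.1 in those of Mi2 (log2 change -2.72, SE 0.349, limma adjusted p = 0.00336). Aph1c fell from 58.6 and 95.1 there to 7.96 and 4.09 in Mi2 (log2 change -3.49, SE 0.495, limma adjusted p = 0.00453). These paralogs are very similar, so reads may have been split between them. The third subunit gene of this kind, Aph1a, chosen after its values were seen, was at 432 and 431 in the WT libraries and at 456 and 426 in those of Mi2. Mib2, a ligase that acts on Notch ligands, fell from 220 and 287 to 39.8 and 80.4 (log2 change -2.13, limma adjusted p = 0.00807). Leaving out WT replicate 2 ended the calls of Aph1c (adjusted p = 0.0648) and Mib2 (0.0687), and 3 of the 38 were then called. None of the 8 nuclear complex genes, RBPJ and its cofactors, was called in epidermis by limma, where 28.2% of all genes were. Of the 8, 2 were at an unadjusted p under 0.05, against 42.5% of all genes. Whether these 8 differ from other genes was not tested.

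In TSLPR WT Mi2 against Ctl Tregs, 37 of the 49 were tested, and 3 were called higher and 6 lower, with a median log2 change of -0.16. The 9 of 37 are near the background of 27.7%. The highest change was that of Dlk1, a non-canonical Delta-like protein gene, which rose from 15.4 and 10.4 normalized reads to 160 and 167 (log2 change 3.59, SE 0.411, limma adjusted p = 2.6e-05). It was at 68.4 in the TSLPR-negative library, above Ctl (2.34, limma adjusted p = 0.0189, or 0.0554 without Ctl replicate 2). Neurl1b, a neuralized ligase, rose from 71.0 and 42.5 to 385 and 355 (log2 change 2.73, limma adjusted p = 3.8e-05). It too was called against Ctl in the TSLPR-negative library, at 241 (2.11, adjusted p = 0.00996). The third rise was in Psen2, a catalytic subunit of gamma-secretase, named although it ranked below the limit of 8 genes and so chosen after its values were seen. Psen2 went from 1773 and 2366 to 4354 and 2975 (log2 change 0.81, limma adjusted p = 0.0182), and lost its call without Ctl replicate 1 (0.106), TSLPR WT Mi2 replicate 1 (0.206), the trend (0.0992) or the filter (0.157).

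Of the 5 Deltex ubiquitin ligase genes tested in TSLPR WT Mi2 Tregs, Dtx1, Dtx3l and Dtx4 fell, and Dtx2 (log2 change -0.30, limma adjusted p = 0.427) and Dtx3 (-0.62, 0.0968) were not called. They were put together after their values were seen, and 13.0% of all genes were called lower, so no result about Deltex genes as a set is drawn. Dtx1 fell from 1663 and 1991 normalized reads in Ctl to 582 and 959, and was at 466 in the TSLPR-negative library. The log2 changes of Dtx1 against Ctl were -1.28 and -1.96 (limma adjusted p = 0.00183 and 0.00452). Dtx4 fell from 207 and 215 to 31.8 and 68.7 (log2 change -2.15, limma adjusted p = 8.3e-04), and stood at 183 in the TSLPR-negative library. That library was higher than TSLPR WT Mi2 by 1.95 for Dtx4, which missed the threshold (limma adjusted p = 0.0696). Dtx3l fell by 0.94, Mib2 by 1.63, Neurl3 by 0.86 and the coactivator gene Maml2 by 0.80, all as log2 changes. The calls of Maml2 and Neurl3 were lost without the trend and without TSLPR WT Mi2 replicate 2, and that of Maml2 also without Ctl replicate 1 or TSLPR WT Mi2 replicate 1. B cell markers, given above beside Notch2, were lower in these libraries too, and their part in these results was not tested.

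Between TSLPR-negative and TSLPR WT Mi2 Tregs, limma called 0 of the 37, where 0.942% of all genes were called. Of the 37, 6 were at an unadjusted p under 0.05, as were 11.9% of all genes, while edgeR called 0 and DESeq2 called 1. Against Ctl, 3 were called in the TSLPR-negative library, namely Dlk1, Neurl1b and Dtx1, where 3.15% of all genes were.

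**Figure D5:**
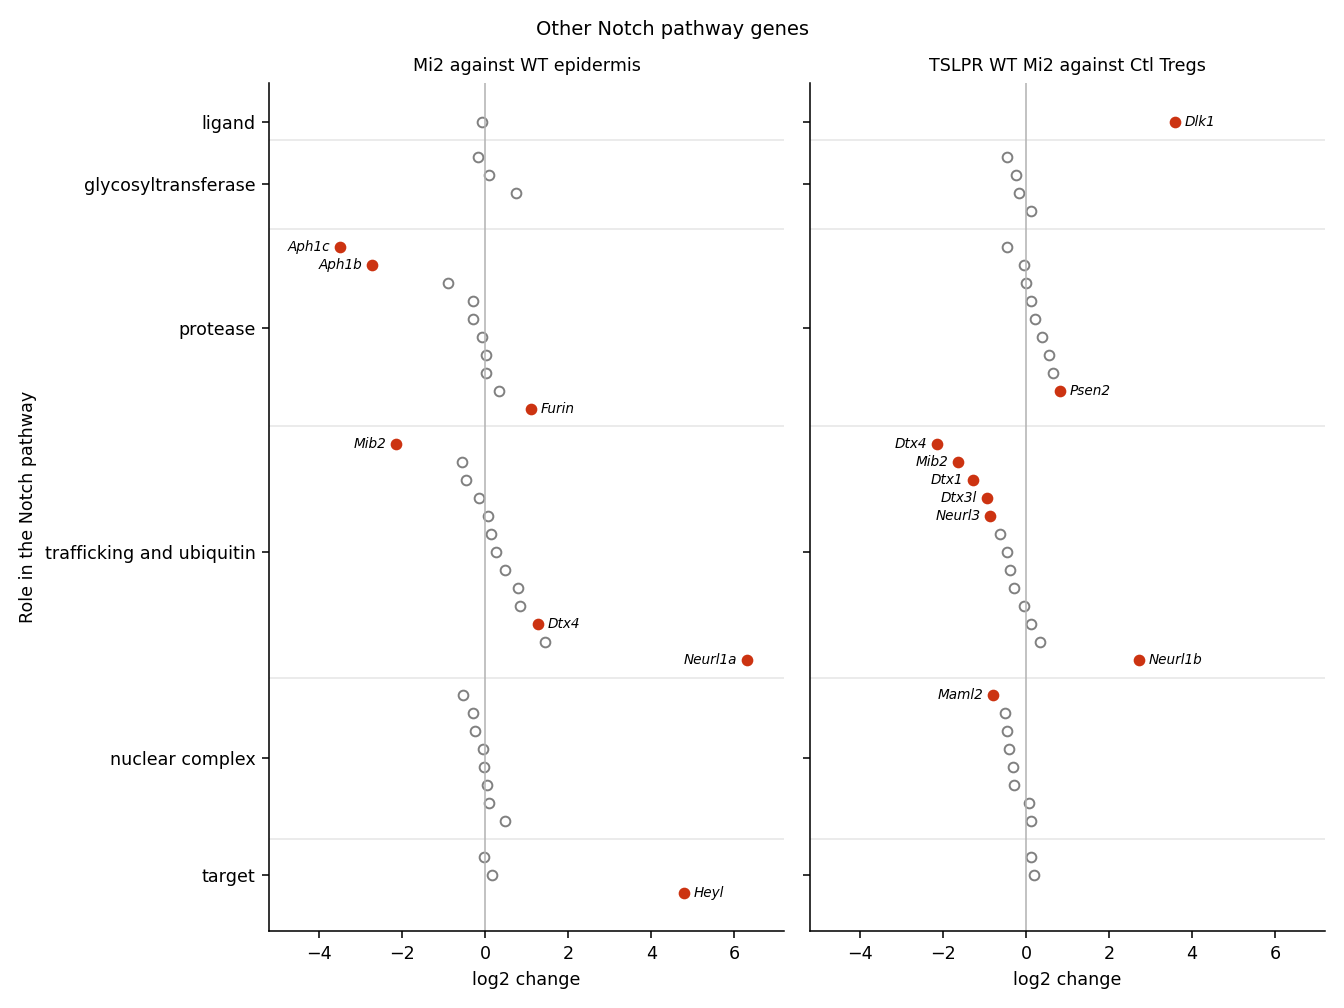
Fitted log2 change of the other Notch pathway genes by role, in Mi2 against WT epidermis (left, 38 genes) and TSLPR WT Mi2 against Ctl Tregs (right, 37 genes). Each point is 1 gene, and filled red points with names were called by limma at an adjusted p under 0.05. Of the 5 genes called lower among trafficking and ubiquitin genes in Tregs, Mib2 was called lower in epidermis as well, whereas Dtx4 was called higher there.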

How the data were processed

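RNA sequencing of 9 libraries was analysed from 2 deposited tables. The submitters' processing notes list bcl2fastq 1.8.3, STAR, DESeq2, mm9 and mm10. The Treg table came from HOMER, run by the authors over exons of mm9 RefSeq transcripts, per the file headers. The counting program of the epidermal table is not given in the sources used here. The deposited signal of both tables was whole reads multiplied by 1 factor per library, and 100% of values were whole reads within 0.05 after dividing by that factor. For each Treg symbol the transcript of highest mean was kept (33022 transcripts, 24016 symbols).

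The test was limma-trend (limma 3.58.1, R 4.3.3) of log2(value + 1), so a change is on that scale and understates changes of low genes. Genes with a mean under 10 were left out, 4 epidermal and 5 Treg libraries were fitted separately, and two-sided p-values were adjusted by Benjamini-Hochberg over all genes. The fit was tested on simulated data. Alternatives were edgeR 4.0.16 and DESeq2 1.42.0 on recovered reads, a pseudocount of 5, no filter, no trend, totals without mitochondrial or the 50 most abundant genes, the longest transcript, each library left out and a replicate block. A setting without the TSLPR-negative library was added after seeing the data. Counting intervals and floors (3 reads per library) cover counting error only, since reads carried no molecular identifiers.

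The genes and lists were chosen with earlier results of these data known. All 10 genes were named, with the called genes of the pathway list, up to 8 per comparison by smallest p, and the markers.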

Additional observations from a re-analysis of the deposited data

Results flagged for a closer look

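Notch2 moved in opposite directions in the Mi2 libraries of the 2 tissues. In epidermis both Mi2 libraries were above both WT libraries, with a log2 change of 0.60 that missed the threshold (0.37 to 0.70 over the alternatives). In Tregs both TSLPR WT Mi2 libraries were below both Ctl libraries, with a log2 change of -0.86 that passed it (-1.16 to -0.55 over the alternatives). The tables were normalized separately and the difference between the tissues was not tested.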

How the results depend on the processing

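No Notch gene that was called changed its direction under any alternative. Counts of called genes moved as follows. Counts over all genes moved with the setting too. Without the trend they went from 4085 to 2918 in epidermis and from 3383 to 2433 in TSLPR WT Mi2 against Ctl Tregs. For the 10 Notch genes in epidermis (3 called), limma without the trend called 0, no filter called 1, and leaving out 1 library gave 0 to 4. In TSLPR WT Mi2 against Ctl Tregs (2 called) no filter gave 0, the replicate block 4 and leaving out 1 library 0 to 3. In TSLPR-negative against TSLPR WT Mi2 (1 called), DESeq2 and no filter gave 0. Against Ctl (1 called), DESeq2, edgeR, no trend, no filter and a pseudocount of 5 gave 0, and leaving out 1 library 0 to 1. For the other pathway genes, leaving out 1 library gave 3 to 11 in epidermis (7 called). In Tregs no filter gave 0 in place of 9 (TSLPR WT Mi2 against Ctl), and no filter and no trend each gave 0 in place of 3 (TSLPR-negative against Ctl). In TSLPR-negative against TSLPR WT Mi2 (0 called), DESeq2 gave 1, and leaving out 1 library 0 to 1. Without the filter limma called 0 Treg genes of 16831 in each comparison (5043, 1741 and 1942 at an unadjusted p under 0.05). The cause was not tested.

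Genes that were not called crossed 0 when 1 library was left out, over these ranges of log2 change. Hes1 in epidermis ran from -1.04 (without Mi2 replicate 2) to 0.23 (without Mi2 replicate 1). Notch1 ran from -0.25 to 0.14 in TSLPR WT Mi2 against Ctl, from -0.26 to 0.12 in TSLPR-negative against Ctl and from -0.12 to 0.087 in TSLPR-negative against TSLPR WT Mi2. In TSLPR-negative against Ctl, Jag2 ran from -0.39 to 0.23 and Lfng from -0.41 to 0.19, with the highest value without Ctl replicate 2.

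In epidermis the median change of all genes was -0.029, but -0.26 without mitochondrial genes and -0.16 without the 50 most abundant. Called genes split into 2185 higher and 1900 lower, and 1546 and 2730 without mitochondrial genes. Same-numbered libraries deviated together at a correlation of 0.12 in epidermis and 0.092 in Tregs, over 2 pairs each. The labels name no shared animal, litter or day, and 2 pairs do not settle whether the numbers pair the libraries. The replicate block raised the calls over all genes from 4085 to 5170 in epidermis and from 3383 to 4382 in Tregs. With the replicate block, 4 of 8 Notch genes were called in epidermis and 4 of 7 in Tregs (Jag2 at limma adjusted p = 0.0406 and Lfng at 0.0170 among them), and 9 and 11 of the other pathway genes.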
